A study of Mus musculus with 4 samples.

Results

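The 350 spots described here are the ones in which Rprm and Hs3st4, a pair of genes of the deep cortex, took the largest share of the transcripts, out of 11064 spots in 4 sections of mouse brain. A spot is a small printed area of the slide under the tissue that captures the polyadenylated RNA of the several cells, or parts of cells, lying on it, and each captured molecule is counted by its unique molecular identifier (UMI). A spot was eligible with at least 500 UMIs, at least 5 UMIs of Slc17a7 (the vesicular glutamate transporter of cortical excitatory neurons), at least 1 of Rprm and at most 2 of Ccn2 and Nxph4 together, a pair of layer 6b genes. Of the 10942 spots with at least 500 UMIs, 5875 had the Slc17a7 UMIs and 2990 met every condition. The 350 with the most Rprm and Hs3st4 UMIs per 10000 UMIs were taken.

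The sections came from wild-type female C57BL/6 mice given intragastric doses every other day, 10 in all over 18 days, and killed 18 hours after the last. There was 1 library each for young ethanol (3 to 4 months, 3 g/kg ethanol), young vehicle (3 to 4 months, water), aged ethanol (18 to 20 months, 3 g/kg ethanol) and aged vehicle (18 to 20 months, water). Each library was 1 coronal section of 10 µm of the left hemisphere, behind bregma, so no group had a replicate and differences between libraries carry no p-value.

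Layer 6 is the deepest layer of the cerebral cortex proper and lies on layer 6b and the white matter. Many of its excitatory neurons project to the thalamus, and in mice these corticothalamic neurons are recognised by Foxp2, Tle4, Syt6, Tbr1 and Ntsr1. Rprm (reprimo) was first known as a p53-induced gene of cell cycle arrest and Hs3st4 encodes a heparan sulfate 3-O-sulfotransferase, and both are used as layer 6 markers in spatial and in situ maps of mouse cortex.

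The promoters of both genes that chose the spots are shown because every later value depends on their transcripts. RefSeq places them in GRCm38.p6 at chr2:54085503-54085802 on the minus strand for Rprm and at chr7:123982578-123982877 on the plus strand for Hs3st4, each running from 250 bases before the start of transcription to 50 after it. Capitals mark the GC box, GGGCGG or CCGCCC.

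Rprm promoter: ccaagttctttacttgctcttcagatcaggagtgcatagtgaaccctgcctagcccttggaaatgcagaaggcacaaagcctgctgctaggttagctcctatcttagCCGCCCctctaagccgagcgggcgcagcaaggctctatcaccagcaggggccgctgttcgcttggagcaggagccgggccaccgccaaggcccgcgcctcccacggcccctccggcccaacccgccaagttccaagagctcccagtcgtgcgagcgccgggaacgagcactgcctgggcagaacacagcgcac

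Hs3st4 promoter: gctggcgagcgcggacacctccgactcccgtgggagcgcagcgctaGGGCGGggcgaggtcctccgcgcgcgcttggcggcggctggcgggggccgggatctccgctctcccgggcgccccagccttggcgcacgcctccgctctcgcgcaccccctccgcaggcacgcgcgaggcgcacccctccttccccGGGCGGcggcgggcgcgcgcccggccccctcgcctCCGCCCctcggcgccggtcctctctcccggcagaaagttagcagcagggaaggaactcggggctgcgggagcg

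The Rprm window had 63.3% G and C, 19 CG dinucleotides and 1 GC box, and the Hs3st4 window 79.3%, 47 and 3. Over 32841 promoters of the same length the median was 52.7% G and C (quartiles 45.7% and 61.7%), and 35.7% held a GC box on either strand. Searched on both strands, neither window held the letters GGTGTGA of a T-box site (in 3.98% of promoters) or TGTTTAC of a forkhead site (in 3.65%).

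Rprm weighed most in the choice. It gave 76.3% of the UMIs counted in the score, exceeded Hs3st4 in 292 of the 350 spots, and had a median of 9.5 UMIs a spot (1 to 39), against 3 for Hs3st4 (0 to 15, with 0 in 45 spots). Summed over the chosen spots of each library, Rprm stood at 387 CPM (UMIs per 1000000 summed UMIs) in young ethanol, 392 in young vehicle, 427 in aged ethanol and 404 in aged vehicle. Hs3st4 stood at 148, 132, 119 and 104 CPM in the same order of libraries. These levels were fixed by the choice and are given as a description. The last spots taken had scores of 3.72 and 3.72 per 10000 UMIs and the first left out 3.70 and 3.70, so the threshold fell at no gap.

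The third marker, Foxp2, a forkhead transcription factor that the choice did not use, was found in only some of the spots. It had no UMI in 49 of 79 spots of young ethanol, 68 of 101 of young vehicle, 38 of 57 of aged ethanol and 80 of 113 of aged vehicle. Clustering of the 350 spots on their most variable genes, centred within each library, gave 5 subgroups, and Tle4 and Syt6 stood above the level of the whole set in 2 of them. Since the corticothalamic genes were spread so unevenly, the whole set is called by its rule genes, Rprm-Hs3st4 spots, here.

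Subgroups 1 and 4, with 176 and 32 spots, had at least 2 of the 3 genes Foxp2, Tle4 and Syt6 above the level of all 350 spots. These 2 subgroups are called the Tle4-Syt6 spots. They made up 208 of the 350 spots, or 59.4% (exact 95% interval 54.1% to 64.6%). That interval treats the spots as independent and does not cover differences between sections. Cutting the same clustering into 4, 6 or 7 subgroups separated the same 208 spots, but such cuts are nested and give no independent check. In the Tle4-Syt6 spots Foxp2 stood at 37.1 CPM, against 2.96 CPM in the other 142 spots. It was uneven within them, at 39.3 CPM in subgroup 1 and 16.5 CPM in subgroup 4 (7 UMIs), below the 19.7 CPM of all 350. Tle4, a Groucho-family co-repressor, stood at 97.3 against 21.3 CPM, and Syt6, a synaptotagmin, at 21.7 against 2.11 CPM. Ighm, the constant part of the immunoglobulin mu heavy chain, stood at 147 against 3.59 CPM. Hs3st4 itself was 189 CPM in the Tle4-Syt6 spots and 62.5 CPM in the others, whereas Rprm was 359 and 440 CPM, so the other 142 spots entered mostly through Rprm. The median score was 5.11 per 10000 UMIs in the Tle4-Syt6 spots and 4.58 in the others. The subgroups were chosen after their values were seen, so these levels are a description with no test. Those of Foxp2, Tle4 and Syt6 were also partly fixed by the choice, which used these 3 genes.

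**Figure D1:**
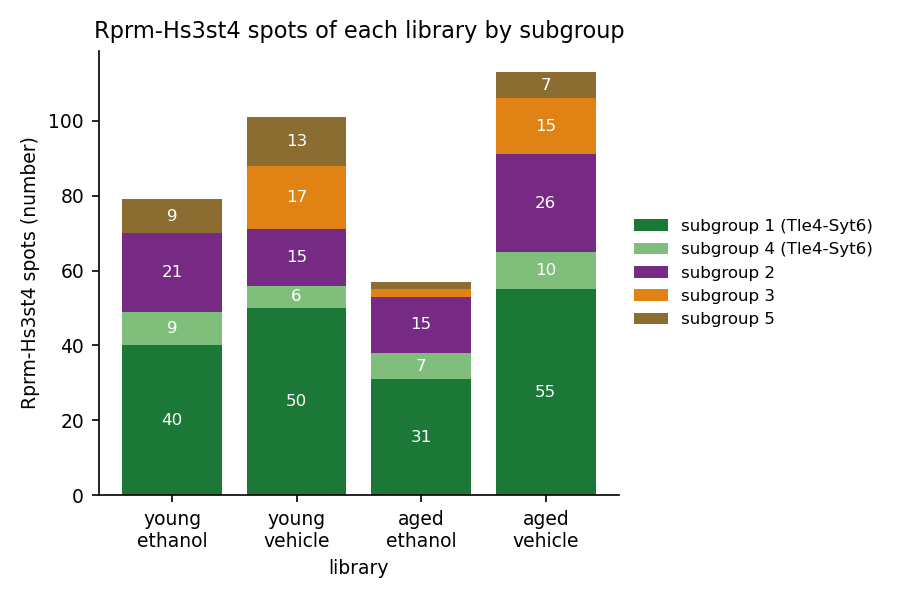
Number of Rprm-Hs3st4 spots in each library, split by subgroup (stacked bars, 1 bar per library). Subgroup 3 (orange) holds 0 spots of young ethanol, 17 of young vehicle, 2 of aged ethanol and 15 of aged vehicle.

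Within the Tle4-Syt6 spots, subgroup 1 was led by Trbc2, the constant part of the T cell receptor beta chain (152 CPM, against 9.88 CPM in the rest of the 350), Nr4a2, a nuclear receptor (158 against 17.4 CPM), and Vxn, a regulator of neurogenesis (751 against 117 CPM). Subgroup 4 was led by genes of myelin: Mbp, myelin basic protein, stood at 5946 CPM against 1394 CPM, with a median of only 12772.5 UMIs a spot, against 23557 in subgroup 1. Cplx3, a complexin of layer 6b neurons, stood at 108 CPM in subgroup 4 and 16.5 CPM in the rest.

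The other 142 spots fell into 3 subgroups, each with its own leading genes. Subgroup 2 (77 spots, median 38433 UMIs) was led by Igfn1 (133 against 4.80 CPM), Tafa2 (296 against 29.4 CPM) and Penk, the enkephalin precursor (611 against 87.0 CPM), with Wfs1, wolframin of the endoplasmic reticulum, at 309 against 65.7 CPM. Subgroup 3 (34 spots) was led by Lypd1, a membrane-anchored modulator of nicotinic receptors, at 1513 against 106 CPM, and by Grp, gastrin-releasing peptide, at 252 against 32.6 CPM. Subgroup 5 (31 spots) was led by C1ql1, a synaptic organiser (82.7 against 9.25 CPM), and by Agt, angiotensinogen (77.4 against 10.9 CPM), and it held Sim1 at 30.7 CPM where the rest had no Sim1 UMI. Avp, vasopressin, and Trh, thyrotropin-releasing hormone, both peptides of the hypothalamus, stood at 34.7 and 29.4 CPM in subgroup 5. None of these subgroups is given a cell type here.

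**Figure D2:**
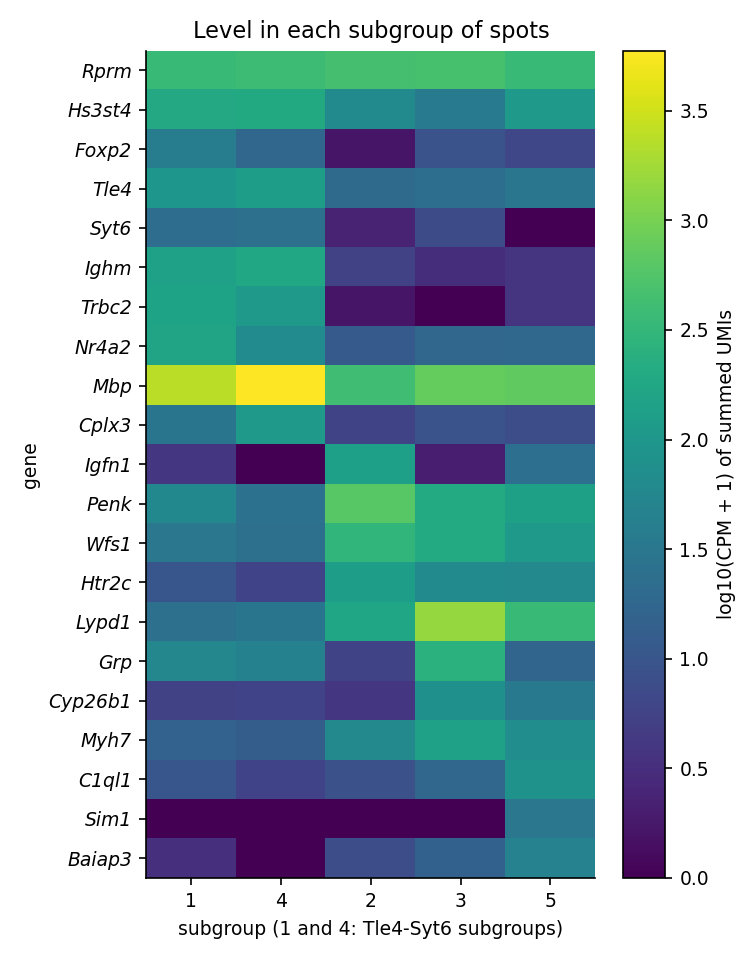
Level of 21 genes in each subgroup of the Rprm-Hs3st4 spots, as log10 of CPM + 1 of the summed UMIs (colour). Rprm is bright in all 5 columns, while Tle4, Syt6, Ighm and Trbc2 are bright in columns 1 and 4, Foxp2 in column 1, Igfn1 and Penk in column 2, and Lypd1 in column 3.

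The libraries summed to between 46005089 and 58307916 UMIs, and their Rprm-Hs3st4 spots to 2046383 UMIs in young ethanol, 2808279 in young vehicle, 1586155 in aged ethanol and 2847218 in aged vehicle. A chosen spot held a median of 24400 to 26410 UMIs, against 15660 to 19077 over all kept spots of a library. Mitochondrially encoded genes took 9.73% of the summed UMIs in young ethanol, 11.2% in young vehicle, 12.9% in aged ethanol and 10.3% in aged vehicle. A count of 0 in these sums allows up to 1.47, 1.07, 1.89 and 1.05 CPM in the same order (3 UMIs). Spot barcodes stand for printed positions and recur between libraries: 1200 of 4159 were used in every library. Of the 343 barcodes among the chosen spots, 7 were chosen in more than 1 library.

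For comparison, the same matrix gave 150 Ccn2-Nxph4 spots (a layer 6b rule), 350 Etv1-Parm1 spots (a layer 5 rule) and 350 Cux2-Stard8-Otof spots (a layer 2/3 rule). Each set was ranked by its own genes. The Etv1-Parm1 and Cux2-Stard8-Otof spots also had at most 2 UMIs of Ccn2 and Nxph4 together. They had at most 2 of the hippocampal genes Fibcd1, C1ql2, Cabp7 and Spink8 together. The Rprm-Hs3st4 and Ccn2-Nxph4 spots had no such hippocampal limit. Its part in the differences from the 2 limited sets was not tested. Summed UMIs per library and set were compared with the library as a block, so the 4 libraries served as replicates of a difference between sets within a section. No gene of any rule was tested, but genes that share cells with the rule genes were. Differences in such layer markers are therefore partly fixed by the choice of the sets. A gene was called at a Benjamini-Hochberg adjusted p under 0.05 in edgeR's quasi-likelihood test and at least a 2-fold difference. In bulk sums of this kind, fewer cells of a type and less RNA per cell cannot be told apart.

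The Rprm-Hs3st4 spots held more corticothalamic RNA than the layer 5 and layer 2/3 sets and less than the layer 6b set. The 13 listed genes summed to 618 to 691 CPM in the Rprm-Hs3st4 spots of the 4 libraries, against 723 to 897 CPM in the Ccn2-Nxph4, 293 to 370 CPM in the Etv1-Parm1 and 269 to 323 CPM in the Cux2-Stard8-Otof spots. In the Tle4-Syt6 spots they summed to 807 to 935 CPM and in the other 142 to 387 to 477 CPM, a difference partly fixed by the split, which used Foxp2, Tle4 and Syt6 of this list. Among the genes of the list the 142 spots differed in direction from the Etv1-Parm1 spots. They averaged 2.76 CPM of Foxp2, 21.6 of Tle4, 2.13 of Syt6 and 5.46 of Nxph3, against 5.02, 27.3, 4.15 and 17.7 CPM in the Etv1-Parm1 spots. Their Tbr1, Crym and Sla averaged 146, 177 and 17.5 CPM, against 74.4, 87.5 and 3.59 CPM.

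Foxp2 stood at 22.0 CPM in young ethanol, 19.9 in young vehicle, 18.9 in aged ethanol and 18.3 in aged vehicle in the Rprm-Hs3st4 spots. The Etv1-Parm1 spots of those libraries had 4.64, 2.64, 6.49 and 6.31 CPM, the Cux2-Stard8-Otof spots 12.0, 11.7, 11.3 and 15 CPM, and the Ccn2-Nxph4 spots 24.5, 15, 27.6 and 13.3 CPM. Every Rprm-Hs3st4 library thus lay above every Etv1-Parm1 and Cux2-Stard8-Otof library and inside the range of the layer 6b set. The log2 difference was 1.93 ± 0.24 (SE, n = 4 libraries, adjusted p = 9.04e-08) from Etv1-Parm1 spots, 0.61 ± 0.19 (adjusted p = 0.03, under 2-fold and not called) from Cux2-Stard8-Otof spots and -0.09 ± 0.23 (adjusted p = 0.862) from Ccn2-Nxph4 spots.

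Tbr1, the T-box factor that specifies layer 6 neurons, stood at 211, 174, 185 and 188 CPM in young ethanol, young vehicle, aged ethanol and aged vehicle. The Etv1-Parm1 spots had 76.3, 70.5, 75.5 and 75.2 CPM, without overlap, for a log2 difference of 1.27 ± 0.08 (adjusted p = 3.12e-15). Unlike Foxp2, it also stood high in the other 142 spots, at 177, 111, 173 and 123 CPM. Crym, a thyroid hormone-binding protein, behaved likewise, with 172 ± 4.60 CPM (SD, n = 4) in the Tle4-Syt6 spots and 177 ± 57.7 CPM in the other 142.

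Nxph3, a secreted neurexin ligand, differed between the Rprm-Hs3st4 and Ccn2-Nxph4 spots. It averaged 38.0 ± 4.27 CPM (SD, n = 4) in the Rprm-Hs3st4 spots and 181 ± 24.0 CPM in the Ccn2-Nxph4 spots, with 71.6 ± 4.23 CPM in the Tle4-Syt6 spots and 5.46 ± 3.29 CPM in the other 142. No library of any of these groups overlapped another group.

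**Figure D3:**
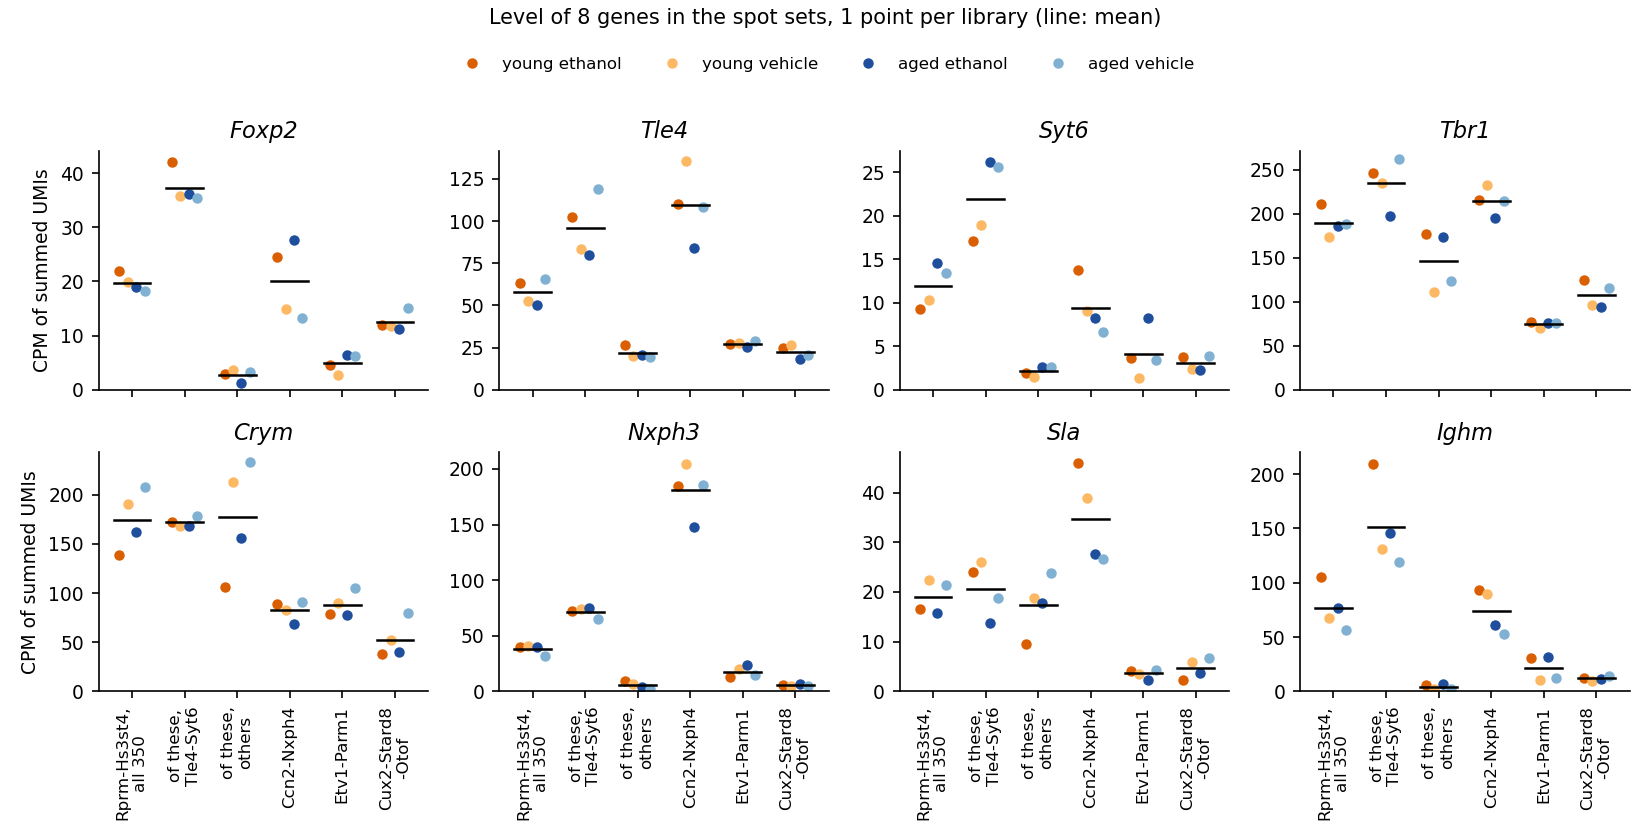
CPM of the summed UMIs of 8 genes in each spot set (points: 1 library each, coloured by group; line: mean of the 4 libraries). The 350 Rprm-Hs3st4 spots, at the left of each panel, lie between their Tle4-Syt6 spots and their other 142 spots for Foxp2, Tle4, Syt6, Nxph3 and Ighm, and the Ccn2-Nxph4 spots reach the highest Nxph3 and Sla.

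Against the Ccn2-Nxph4 spots, the Rprm-Hs3st4 spots had less of the layer 6b genes and of myelin. They had more of 5 of the 7 layer 2/3 genes, of which 1 was called with the Tle4-Syt6 spots alone. Of 11515 genes tested, 253 were called higher (2.20%) and 277 lower (2.41%). All 4 tested genes of the layer 6b list fell, with a median log2 difference of -2.05, against 0.00 over all genes. The rules set these spots apart on Ccn2 and Nxph4, so the fall of other layer 6b genes was partly fixed. Cplx3 stood at 25.4, 17.4, 16.4 and 22.8 CPM in young ethanol, young vehicle, aged ethanol and aged vehicle, against 315, 344, 219 and 343 CPM in the Ccn2-Nxph4 spots. The groups lay an order of magnitude apart (log2 difference -3.94 ± 0.13, adjusted p = 3.12e-23). Moxd1, a monooxygenase-like protein, differed by -2.26 ± 0.23, Tmem163, a zinc transporter, by -1.66 ± 0.16 and Lpar1, a lysophosphatidic acid receptor, by -1.83 ± 0.20.

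Outside that list, Prph, the intermediate filament peripherin, fell to 1.86 ± 0.86 CPM, against 24.5 ± 4.43 CPM in Ccn2-Nxph4 spots, and Ly6g6e and Klk6 fell by 3.27 and 2.70 on the log2 scale. Of the 13 corticothalamic genes, Nxph3, Thsd7b and Ntsr1 fell and Crym rose (1.04 ± 0.11, adjusted p = 2.92e-09). Thsd7b and Ntsr1 were not called with the Tle4-Syt6 spots alone (-0.85 and -0.99). The median log2 difference of that list was -0.65 with all 350 spots and -0.08 with the Tle4-Syt6 spots alone. That shift was partly fixed by the split, which used Foxp2, Tle4 and Syt6. All 10 myelin genes fell (median -1.78), among them Mog at -2.07 ± 0.14. Only 4 of the 10 were called with the Tle4-Syt6 spots alone, and the median was then -0.94. Their sum was 2527 to 3494 CPM in the Rprm-Hs3st4 spots and 7862 to 12593 CPM in the Ccn2-Nxph4 spots, and how much of the other differences moves with this myelin content was not tested.

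Among genes called also with the Tle4-Syt6 spots alone, Syndig1, a synapse differentiation protein, averaged 25 ± 2.49 CPM, against 7.76 ± 3.03 CPM in Ccn2-Nxph4 spots. Lamp5 averaged 102 ± 6.63 CPM against 38.0 ± 8.89 CPM, and Chgb, chromogranin B of dense-core vesicles, 683 ± 32.8 CPM against 255 ± 13.8 CPM. The axon guidance receptor Epha4 rose by 1.17 ± 0.15. By contrast, Igfn1, Penk, Lmo3 and Wfs1 rose with all 350 spots (log2 differences of 3.32, 1.27, 1.38 and 1.51) but had log2 differences of -0.74, -0.95, -0.46 and -0.72 in the Tle4-Syt6 spots. They are genes of subgroup 2.

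Against the Etv1-Parm1 spots, the Rprm-Hs3st4 spots had more of 6 of 13 corticothalamic genes, of Nptx1 and of Ighm. They had less of layer 4 genes, of 3 of 8 layer 5 genes and of thalamic genes. Here 163 of 11515 genes were called higher (1.42%) and 222 lower (1.93%). Of 13 corticothalamic genes 6 rose and none fell, with a median of 0.95: Foxp2, Tle4, Syt6, Tbr1, Sla and Nxph3. The median was 1.67 in the Tle4-Syt6 spots, partly fixed by their split, which used Foxp2, Tle4 and Syt6. A list of layer 6 intratelencephalic (projecting within the forebrain) and claustral genes rose too, with 2 of 4 tested called (median 1.21). With the Tle4-Syt6 spots 3 of the 4 were called (median 2.01), so the rise was not particular to corticothalamic genes. Tle4 was 63.5, 52.3, 50.4 and 65.7 CPM in young ethanol, young vehicle, aged ethanol and aged vehicle, against 26.8, 27.8, 25.4 and 29.1 CPM (log2 difference 1.01 ± 0.12, adjusted p = 4.53e-08). Sla, an adaptor that damps antigen-receptor signalling, rose most of the corticothalamic genes, by 2.32 ± 0.26. Ntsr1, the neurotensin receptor used to mark corticothalamic neurons, had few UMIs and was not called (6.20 ± 3.01 against 2.99 ± 2.53 CPM, adjusted p = 0.0538).

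Ighm, a gene of the Tle4-Syt6 spots, stood at 105, 67.3, 76.9 and 56.5 CPM in young ethanol, young vehicle, aged ethanol and aged vehicle, against 30.4, 10.6, 31.8 and 12.1 CPM in Etv1-Parm1 spots. The sets did not overlap (log2 difference 1.82 ± 0.16, adjusted p = 5.67e-11). In both sets the ethanol library of each age was the higher. Nptx1, neuronal pentraxin 1, which clusters glutamate receptors, averaged 400 ± 26.0 CPM against 125 ± 6.15 CPM (1.59 ± 0.07, adjusted p = 1.03e-18). Cplx2, a complexin of vesicle release, averaged 492 ± 42.2 CPM against 164 ± 11 CPM. With the Tle4-Syt6 spots alone their means were 434 and 432 CPM. Sulf1, an extracellular sulfatase that trims heparan sulfate, rose by 1.85 ± 0.23, while its relative Sulf2 fell by 1.24 on the log2 scale. Oprk1, the kappa opioid receptor, rose by 1.64 ± 0.39 at only 6.34 CPM.

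Among the genes that fell, Tshz2, a zinc finger factor of layer 5 neurons, stood at 13.9 ± 4.68 CPM against 46.8 ± 12.3 CPM, Bcl6 at 15.2 ± 4.30 against 33.1 ± 2.82 CPM, and Deptor, an inhibitor of mTOR, differed by -1.02 ± 0.24, with 1 of the 4 libraries going the other way, and was not called with the Tle4-Syt6 spots alone (-0.65). They are the 3 of 8 layer 5 genes that passed (median -0.96). The sums of the 9 listed layer 5 genes overlapped, at 1332 to 2097 CPM in the Rprm-Hs3st4 and 1502 to 2568 CPM in the Etv1-Parm1 spots. The Rprm-Hs3st4 spots had the higher sum in both vehicle libraries and the lower in both ethanol libraries. The Tle4-Syt6 spots had 2024 to 3060 CPM, above the Etv1-Parm1 spots in each library. Of 4 layer 4 genes 3 fell (median -1.77), with Rspo1, a Wnt amplifier, at 2.56 ± 1.85 against 20.3 ± 4.56 CPM. Pvalb, parvalbumin of fast-spiking interneurons, was 111 ± 18.8 CPM against 376 ± 136 CPM, and Sst, somatostatin, 367 ± 167 CPM against 736 ± 341 CPM. Vamp1 and Cplx1, presynaptic proteins of fast-spiking cells, fell by 1.23 and 1.14 on the log2 scale. With the Tle4-Syt6 spots alone Pvalb, Sst, Vamp1 and Cplx1 were not called (-0.97, -0.57, -0.81 and -0.71).

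The Etv1-Parm1 and Cux2-Stard8-Otof spots also carried thalamic genes. The 8 listed thalamic genes summed to 55.5 to 88.9 CPM in the Rprm-Hs3st4 spots, against 145 to 494 CPM and 137 to 597 CPM in those sets, and 6 of 7 tested fell in each comparison (medians -2.32 and -2.80). Prkcd, a protein kinase C of thalamic neurons, was 12.2, 6.77, 19.5 and 5.97 CPM in young ethanol, young vehicle, aged ethanol and aged vehicle, against 234, 33.5, 96.7 and 56.3 CPM in Etv1-Parm1 spots. How much of the other differences comes with these spots of the comparison sets was not tested. All 4 haemoglobin genes were also called lower than in Etv1-Parm1 spots (median -1.18), but 1 of the 4 libraries went the other way for each of them, and Hbb-bs was not called with the Tle4-Syt6 spots alone.

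Against the Cux2-Stard8-Otof spots, the Rprm-Hs3st4 spots had more of 8 of the 13 corticothalamic genes, and less of Lamp5, Calb1 and layer 4 genes. There were 87 genes called higher (0.756%) and 156 lower (1.35%). The corticothalamic genes that rose were Tle4, Syt6, Crym, Sla, Thsd7b, Nxph3, Garnl3 and Zfpm2, none fell, and the median was 1.3. It was 1.91 in the Tle4-Syt6 spots, partly fixed by their split, which used Foxp2, Tle4 and Syt6. Of the layer 6 intratelencephalic and claustral list 2 of 4 tested genes rose (median 0.97), and 3 with the Tle4-Syt6 spots (median 1.76). Nxph3 rose by 2.80 ± 0.20 (31.6 to 40.6 CPM, against 4.45 to 6.77 CPM over the Cux2-Stard8-Otof libraries), Crym by 1.70 ± 0.09 and Zfpm2, a GATA co-factor, by 1.73 ± 0.24. Trbc2 averaged 71.0 ± 11.4 CPM against 13.3 ± 5.01 CPM, and Gadd45a, a growth arrest and DNA repair gene, 32.1 ± 5.57 CPM against 5.35 ± 2.79 CPM. Among the 350 they stood at 144 and 60.5 CPM in the Tle4-Syt6 spots, against 0.78 and 4.99 CPM in the other 142.

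The heparan sulfate enzymes, the family of Hs3st4, had 3 of 16 genes called higher and none lower, among them Hs3st2 (67.7 ± 11.4 CPM against 24.4 ± 6.79 CPM, log2 difference 1.39 ± 0.13) and Sulf1 (1.73 ± 0.22). The median of that list was 0.13. Against Ccn2-Nxph4 spots Ndst3 and Ndst4, sulfotransferases of heparan sulfate, rose and Sulf1 and Sulf2 fell (-1.09 and -1.43), and none was called with the Tle4-Syt6 spots alone. Of 7 layer 2/3 genes, Lamp5 and Calb1 fell (-1.80 ± 0.09 and -1.22 ± 0.10). Lamp5 was 109, 97.2, 107 and 96.2 CPM in young ethanol, young vehicle, aged ethanol and aged vehicle, against 408, 389, 248 and 327 CPM. Rorb, a nuclear receptor of layer 4, fell by 1.76 ± 0.18, and Vip, vasoactive intestinal peptide of interneurons, by 1.19 ± 0.17. Fezf2 and Bcl11b, factors of subcortically projecting neurons, rose by 1.46 ± 0.17 and 1.12 ± 0.13, whereas against the Etv1-Parm1 spots Fezf2 had -0.91 and was not called.

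Part of each comparison turned on the subgroups. With the Tle4-Syt6 spots alone, 30 of the 253 genes called higher and 93 of the 277 called lower than in Ccn2-Nxph4 spots were called again. Against Etv1-Parm1 spots it was 56 of 163 and 119 of 222, and against Cux2-Stard8-Otof spots 55 of 87 and 100 of 156. Against Cux2-Stard8-Otof spots, Htr2c, a serotonin receptor of subgroup 2, had a log2 difference of -1.44 with the Tle4-Syt6 spots and 1.21 with all 350, and Lmo3 had 0.11 and 1.95.

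**Figure D4:**
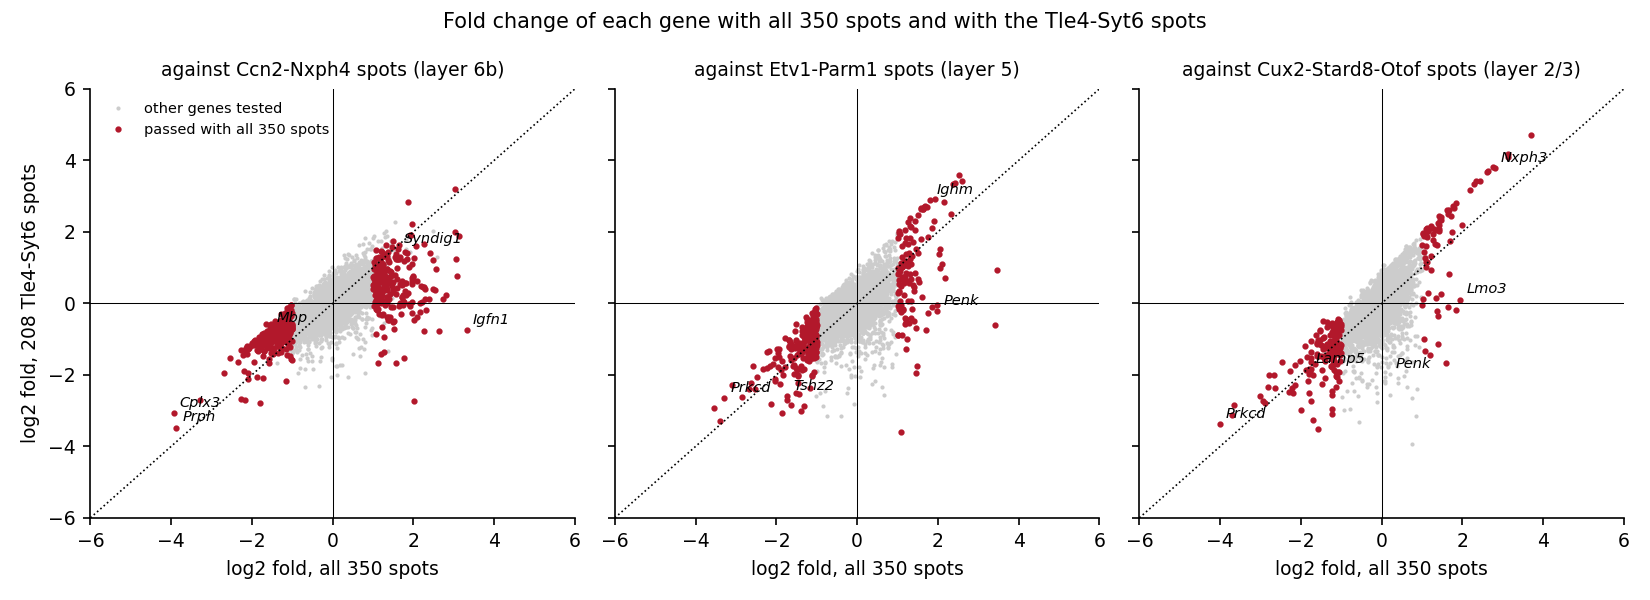
Log2 fold change of each tested gene with all 350 Rprm-Hs3st4 spots (horizontal) and with their 208 Tle4-Syt6 spots (vertical) against each comparison set. Red points passed with all 350 spots and the dotted line marks equal values. Igfn1 (left panel), Penk (middle) and Lmo3 (right) lie far below the line, while Cplx3, Ighm, Prkcd and Nxph3 lie near or beyond it.

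The levels of many genes followed the score across the Slc17a7 spots. Over 12446 genes, the highest mean rank correlations within libraries were those of Ttc9b (0.46), Ncald (0.45), Gpm6a (0.44) and Hpcal4 (0.44), and Basp1, Ctxn1, Nptx1, Dynll1, Ldha, Stmn1 and Thra were among the next (0.42 to 0.38). The spots of a library share its section and differ in depth, so these are a description with no p.

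The share of a library's kept spots that was chosen was lower in both ethanol sections. It was 2.74% in young ethanol (79 of 2881 spots, exact Clopper-Pearson 95% interval 2.18% to 3.41%) and 3.72% in young vehicle (101 of 2716, 3.04% to 4.50%). It was 2.16% in aged ethanol (57 of 2642, 1.64% to 2.79%) and 4.18% in aged vehicle (113 of 2703, 3.46% to 5.0%). The aged intervals did not overlap and the young ones did. With spots scored on Hs3st4 alone the shares lay closer, at 3.26% in young ethanol and 3.61% in young vehicle, and at 2.42% in aged ethanol and 3.48% in aged vehicle. The Tle4-Syt6 spots took 62.0% of the chosen spots in young ethanol, 55.4% in young vehicle, 66.7% in aged ethanol and 57.5% in aged vehicle, with overlapping intervals. The intervals cover counting error only, and with 1 section per group the cut of the section and the group cannot be told apart.

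Between libraries, a gene met the rule of size with at least a 2-fold CPM ratio and at least 50 UMIs in the library that had more. Ratios are given with exact 95% intervals for counting error, without a test. In the young pair, ethanol over vehicle, 23 of 7416 genes were higher (0.310%) and 33 lower (0.445%). Over the Tle4-Syt6 spots it was 12 of 4803 higher (0.250%) and 20 lower (0.416%). No corticothalamic gene met the rule (0 of 9, median log2 ratio -0.02, against 0.03 over all genes). Foxp2 was 22.0 CPM in young ethanol and 19.9 CPM in young vehicle (ratio 1.10, 0.73 to 1.66). Ighm had a ratio of 1.56 (1.28 to 1.91), short of the rule, and 1.60 in the Tle4-Syt6 spots.

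The 4 haemoglobin genes were higher in young ethanol. Hba-a1 stood at 266 CPM in young ethanol and 55.2 CPM in young vehicle (545 and 155 UMIs, ratio 4.83, 4.03 to 5.81), and Hbb-bs at 893 and 223 CPM. They met the rule in the Tle4-Syt6 spots too, where Hba-a1 had a log2 ratio of 2.04. In the Etv1-Parm1 spots of the same libraries the log2 ratio of Hba-a1 was -1.3 and in the Cux2-Stard8-Otof spots 0.50. Haemoglobin RNA belongs to red blood cells, and the part of blood left in the sections was not tested. Gfap, the filament of reactive astrocytes, was 32.3 against 15.3 CPM (66 and 43 UMIs, ratio 2.11, 1.41 to 3.17), and 59.2 against 15.5 CPM in the Tle4-Syt6 spots. In spots with no Ccn2 or Nxph4 UMI the log2 ratio of Gfap was -0.041, so its direction was not kept. Sst was lower, at 260 CPM in young ethanol and 598 CPM in young vehicle, and missed the rule in the Tle4-Syt6 spots (399 and 614 CPM).

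In the aged pair, ethanol over vehicle, 12 of 7428 genes were higher (0.162%) and 36 lower (0.485%). Among the Tle4-Syt6 spots it was 16 of 4584 higher (0.349%) and 46 lower (1.0%). Again no corticothalamic gene met the rule (0 of 9, median -0.02 against -0.05 over all genes), and Foxp2 was 18.9 CPM in aged ethanol and 18.3 CPM in aged vehicle. Bc1, brain cytoplasmic RNA 1 of dendrites, was higher with aged ethanol, at 11542 CPM, against 4154 CPM in aged vehicle (ratio 2.78, 2.72 to 2.84). Lars2 and Gm42418, whose counts in single-cell and spatial data often hold ribosomal RNA, had ratios of 2.65 and 2.09, and mt-Atp8, a mitochondrial ATP synthase subunit, 2.18. These 4 genes had log2 ratios of 2.19, 2.81, 2.58 and 1.88 in the Tle4-Syt6 spots, and Bc1 had 1.69, 1.12 and 1.47 in the Ccn2-Nxph4, Etv1-Parm1 and Cux2-Stard8-Otof spots. Mapt, the tau gene, was 208 CPM in aged ethanol and 113 CPM in aged vehicle (ratio 1.83, 1.57 to 2.14), short of the rule.

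At both ages, Lypd1, Nnat, Myh7, Pcdh8, Cpne8, Ttr, Grp and Pcdh19 were lower with ethanol and Incenp higher, of 7133 genes considered in both. Lypd1 stood at 103 CPM in young ethanol and 337 CPM in young vehicle (211 and 945 UMIs), and at 102 CPM in aged ethanol and 356 CPM in aged vehicle (161 and 1013 UMIs). Subgroup 3, which led in Lypd1, Grp, Cpne8 and Myh7, held 0 of 79 spots in young ethanol, 17 of 101 in young vehicle, 2 of 57 in aged ethanol and 15 of 113 in aged vehicle. Lypd1 in the Tle4-Syt6 spots was 10.0, 28.1, 23.7 and 30.1 CPM in that order of libraries, with too few UMIs for the rule. Grp there had a log2 ratio of 0.45 in the young pair and -0.86 in the aged pair.

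Nnat, neuronatin of the endoplasmic reticulum, was lower with ethanol in the Tle4-Syt6 spots too, with log2 ratios of -1.19 in the young pair and -0.65, short of the rule, in the aged pair, against -1.04 and -1.09 with all 350. Ttr, transthyretin, the main transcript of choroid plexus, was 198 CPM in young ethanol and 468 CPM in young vehicle, and 264 CPM in aged ethanol and 1147 CPM in aged vehicle. With the Tle4-Syt6 spots alone it was the higher in young ethanol, with 400 CPM in young ethanol and 68.9 CPM in young vehicle. The part of choroid plexus RNA in these values was not tested, and its other listed genes had too few UMIs to be considered. Incenp, an inner centromere protein, was 30.8 CPM in young ethanol and 15.3 CPM in young vehicle, and 34.7 CPM in aged ethanol and 13.0 CPM in aged vehicle.

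Within the Tle4-Syt6 spots, 1 gene of 4368 considered was lower with ethanol at both ages. Marcksl1, a membrane-bound actin regulator, was 13.0 CPM in young ethanol and 48.5 CPM in young vehicle (ratio 0.27, 0.14 to 0.49), and 21.2 CPM in aged ethanol and 44.4 CPM in aged vehicle (0.48, 0.26 to 0.83). The aged ratio lay just past the 2-fold limit. All genes considered in these spots had a median log2 ratio of -0.14 in the aged pair and -0.02 in the young pair. Whether Marcksl1 meets the rule at both ages beyond that median was not tested. In the Etv1-Parm1 spots it was 35.1 and 92.6 CPM in the young pair and 14.7 and 83.5 CPM in the aged pair, and in the Ccn2-Nxph4 spots 13.8 and 51.9 CPM, and 48.1 and 42.0 CPM. The aged pair of the Ccn2-Nxph4 spots thus went against the other pairs given here, which do not include the Cux2-Stard8-Otof spots.

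**Figure D5:**
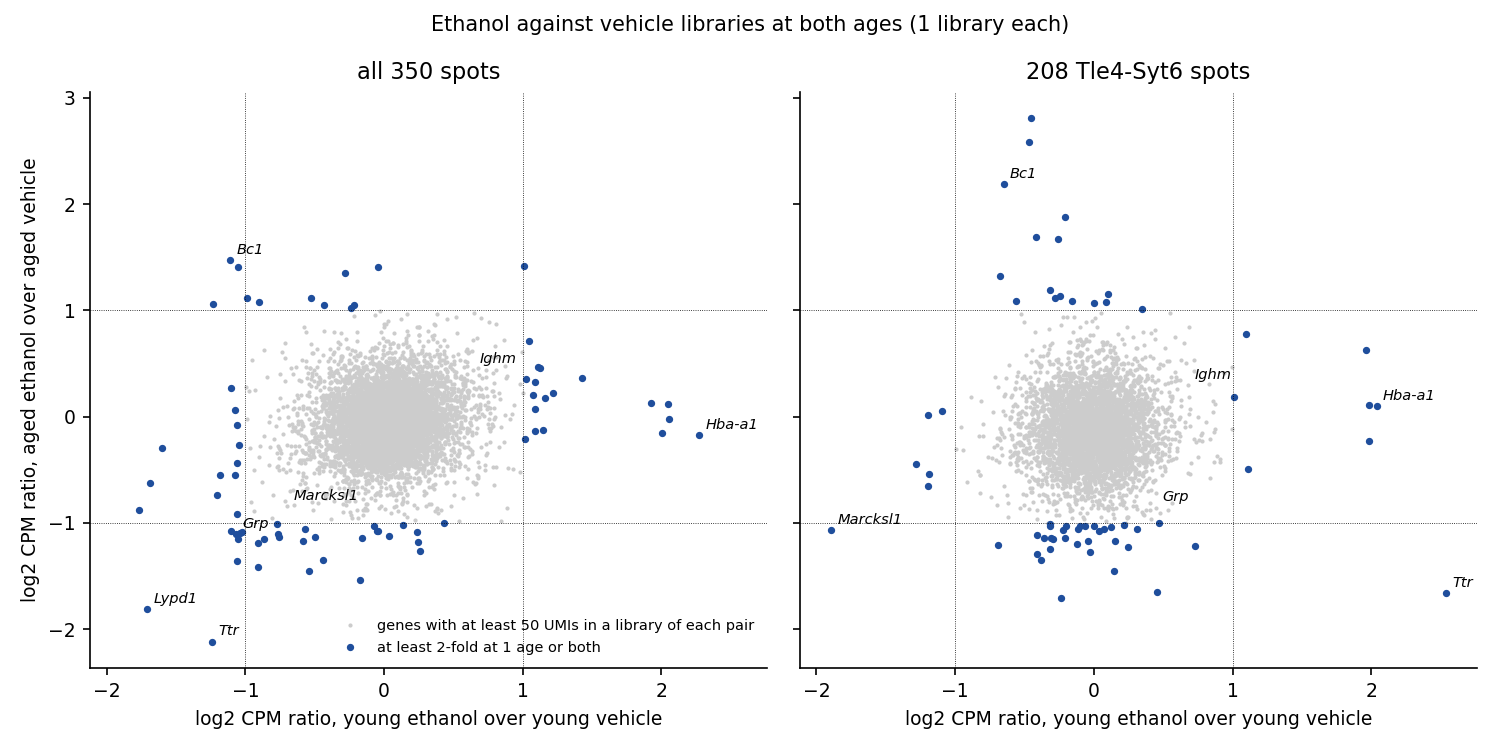
Log2 CPM ratio of ethanol over vehicle in the young pair of libraries (horizontal) and the aged pair (vertical), for all 350 Rprm-Hs3st4 spots (left) and the 208 Tle4-Syt6 spots (right). Each point is a gene, and blue points are at least 2-fold apart at 1 age or both. Lypd1 and Ttr lie at the lower left with all 350 spots, Marcksl1 at the lower left with the Tle4-Syt6 spots, and Ttr at the lower right there.

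With age, in the vehicle pair, 9 of 7692 genes were higher (0.117%) and 8 lower (0.104%). With the Tle4-Syt6 spots it was 6 of 5012 higher (0.120%) and 16 lower (0.319%). No corticothalamic gene met the rule (0 of 9, median -0.04 against 0.02 over all genes), and Foxp2 was 18.3 CPM in aged vehicle and 19.9 CPM in young vehicle. Klf2, a flow-responsive factor of endothelium, was 40.0 CPM in aged vehicle and 18.5 CPM in young vehicle (ratio 2.16, 1.54 to 3.06). Genes of blood and choroid plexus were higher in the same library. Hba-a1 was 156 CPM in aged vehicle and 55.2 CPM in young vehicle, the 4 haemoglobin genes summed to 838 and 388 CPM, and Ttr was 1147 and 468 CPM. Their part in the Klf2 value was not tested. Vip was lower, at 37.2 CPM in aged vehicle and 82.3 CPM in young vehicle, and in the Tle4-Syt6 spots at 17.3 and 96.3 CPM. Bc1 was 4154 CPM in aged vehicle and 9301 CPM in young vehicle.

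With age, in the ethanol pair, 12 of 6422 genes were higher (0.187%) and 31 lower (0.483%). In the Tle4-Syt6 spots it was 7 of 3654 higher (0.192%) and 18 lower (0.493%). None of the 5 corticothalamic genes considered met the rule (median -0.09 against -0.07 over all genes). The immediate early genes, induced within minutes of neuronal activity, had 4 of 14 higher and none lower, with a median log2 ratio of 0.68: Btg2, Fosb, Junb and Fosl2. Junb was 80.1 CPM in aged ethanol and 38.6 CPM in young ethanol (127 and 79 UMIs, ratio 2.07, 1.55 to 2.78), and 2.00 in the Tle4-Syt6 spots, just under the rule. Fosl2 was not picked by the naming rule and is given because it completes the count. Bc1, Gm42418 and Lars2 had log2 ratios of 1.42, 1.44 and 1.53, and the mitochondrial share of the UMIs was 12.9% in aged ethanol against 9.73% in young ethanol. The part of that share in these values was not tested. C1ql1 and Cbln2, secreted synaptic organisers, were lower, at 8.83 against 35.7 CPM and 19.5 against 56.7 CPM. Subgroup 5, which C1ql1 led, held 2 of 57 spots in aged ethanol and 9 of 79 in young ethanol. No gene met the rule in the same direction in both age pairs, of 6403 considered in both.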

How the data were processed

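Spatial gene expression (10x Visium) was measured in 4 brain sections. The deposited matrix holds UMI counts per gene and spot, made by the authors with Space Ranger: per the file headers version 1.3.1, and per the submitters' processing notes version 2.0.0 with mm10. Which version made the counts, and whether reads were subsampled, is not given in the sources used here. Counts were used as deposited. The spots and the gene lists were chosen with earlier results of these data known, and the subgroups after their values were seen.

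UMIs were summed per library and spot set. Genes with at least 10 UMIs in at least 4 sums were tested with edgeR 4.0.16 (TMM, quasi-likelihood, library as block, R 4.3.3) in 1 fit over 4 sets. Library comparisons used CPM ratios, leaving out the genes of the layer 6 rule. Scripts were tested on simulated data. Genes were named by size: for sets, the 8 highest and 8 lowest called genes at 20 CPM or more with the same sign in 4 libraries; for libraries, the 10 farthest from 0 by interval; then up to 4 or 3 members a list, and 15 fixed genes. A second rule, the 8 highest and lowest called both with all spots and with the Tle4-Syt6 spots, was added later. Alternatives were DESeq2 1.42.0, other filters, thresholds and choices of spots. Doublets were not called, since a spot holds several cells.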

Additional observations from a re-analysis of the deposited data

Results flagged for a closer look

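The genes below met the rule of size in opposite directions in a pair of comparisons. Each comparison rests on 1 library a group, so the difference between the pairs was not tested.

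With all 350 spots, Bc1 had a log2 CPM ratio of ethanol over vehicle of -1.11 in the young pair and 1.47 in the aged pair. Lars2 had -1.05 and 1.41, and Gm42418 had -1.24 and 1.06. In the aged over young comparison, Bc1 had -1.16 in the vehicle pair and 1.42 in the ethanol pair. Hbb-bs, a haemoglobin beta chain, had 1.05 and -1.10 in those pairs, and Hba-a2, a haemoglobin alpha chain, 1.05 and -1.03. With spots scored on Hs3st4 alone the vehicle pair of Hba-a2 had -0.24, so that direction was not kept.

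In the Tle4-Syt6 spots, Ttr had an ethanol over vehicle log2 ratio of 2.54 in the young pair and -1.66 in the aged pair. With age, Bc1 had -1.16 in the vehicle pair and 1.68 in the ethanol pair, Lars2 had -1.46 and 1.80, and Gm42418 had -1.46 and 1.59. The libraries with the higher Bc1, Lars2 and Gm42418, aged ethanol and young vehicle, also had the higher mitochondrial share of the UMIs of the 350 spots (12.9% and 11.2%, against 9.73% in young ethanol and 10.3% in aged vehicle).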

How the results depend on the processing

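Counts of called genes below are higher and lower together. Requiring 50 UMIs in the 4 sums gave 233 genes against Ccn2-Nxph4 spots, 136 against Etv1-Parm1 spots and 74 against Cux2-Stard8-Otof spots, for 530, 385 and 243 in the report, and dropping the minimum fold gave 1803, 2505 and 1487. Fewer or more genes could pass by construction. Leaving out each library in turn gave 440 to 525, 324 to 375 and 209 to 227 genes. A score from Hs3st4 alone shared 158 of the 350 spots and gave 294 genes against Ccn2-Nxph4 and 179 against Etv1-Parm1 spots. The Tle4-Syt6 spots, an alternative added after seeing the data, gave 222 against Ccn2-Nxph4 and 512 against Cux2-Stard8-Otof spots. Without TMM scaling, 201 genes were higher and 171 lower than in Etv1-Parm1 spots, for 163 and 222 in the report. With the Tle4-Syt6 spots, Igfn1, Penk, Lmo3 and Wfs1 reversed against Etv1-Parm1 (log2 -0.61, -0.21, -0.55 and -0.98) and Ccn2-Nxph4 spots (-0.74, -0.95, -0.46 and -0.72), as did Htr2c against Cux2-Stard8-Otof spots (-1.44, and -0.038 with Hs3st4 alone). Of 2949 values of named genes under the alternatives, 2749 kept their side of the threshold, 129 lost the call, 61 gained it and 10 called values reversed.

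Between libraries, genes meeting the rule of size numbered 217 at 20 UMIs, 26 at 100 UMIs and 367 at 1.5-fold for ethanol over vehicle in the young pair (56 in the report), and 234, 21 and 401 in the aged pair (48). For aged over young they numbered 117, 8 and 200 in the vehicle pair (17), and 213, 11 and 322 in the ethanol pair (43). The young ethanol pair gave 20 genes with Hs3st4 alone, of which 8 were among the 56, and 32 with the Tle4-Syt6 spots. The aged over young ethanol pair gave 25 with 250 spots, 25 with the Tle4-Syt6 spots, and 13 higher and 19 lower with median-of-ratios scaling, for 12 and 31 in the report. Ethanol over vehicle log2 ratios reversed in the young pair for Ttr (0.21 with Hs3st4 alone, 2.54 with the Tle4-Syt6 spots), Gfap (-0.041 in spots with no Ccn2 or Nxph4 UMI) and Grp (0.45 with the Tle4-Syt6 spots), and the aged over young vehicle ratio of Hba-a2 was -0.24 with Hs3st4 alone. Of 1296 such values, 1077 stayed within the counting interval, 214 moved beyond it and 5 reversed. The cause of these changes was not tested.

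The share of chosen spots in young ethanol, young vehicle, aged ethanol and aged vehicle was 2.05%, 2.5%, 1.55% and 3.03% with 250 spots, and 3.51%, 4.68%, 2.99% and 5.29% with 450. It was 5.01%, 6.43%, 4.31% and 8.03% of the spots with Slc17a7 UMIs, and 1.70%, 2.06%, 1.44% and 2.40% for the Tle4-Syt6 spots. With spots scored on Rprm alone it was 2.36%, 3.68%, 2.46% and 4.33%, and on Hs3st4 alone 3.26%, 3.61%, 2.42% and 3.48%. In each of these the ethanol section was the lower at both ages, with the ratio nearest to 1 for Hs3st4 alone. No paired analysis was possible because each group has 1 sample. With 1 section a group, differences between libraries have no replicate check, and genes under 50 UMIs were not compared.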
